A study of Mus musculus with 6 samples.

Results

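The Hox and Irx genes encode homeobox transcription factors that mark position along the body and within organs. They were examined in endothelial cells of the cerebellum with and without Frizzled4, their receptor for Norrin and for Wnt proteins. Members were taken as the probe sets (groups of array probes read together as 1 value) that the platform annotation assigned to a single Hox or Irx symbol. The rule gave 54 of 45037 probe sets and 39 of 18193 genes, of which 33 were Hox genes and 6 were Irx genes, and each gene was read from its brightest probe set, by the mean over all 6 arrays. A further 3 probe sets assigned to pairs of Hox symbols were left out by the rule.

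The compared groups were 3 Fz4-/- and 3 wild type preparations of cells bound by anti-PECAM beads from cerebellum at postnatal day 16, of mixed gender and a C57Bl6/129 mixed background. PECAM is a surface protein of endothelial cells. Each preparation was read on 1 Affymetrix 3' expression array. The labels do not say that the preparations came from separate animals, so the p-values reflect only how far these samples vary, which may be technical. Values are on the log2 scale of RMA, each difference is the Fz4-null mean less the wild-type mean, and precision is limited by the number of arrays.

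Hox genes lie in clusters in which the order of the genes matches the order of the body regions where they act, and low numbers mark the anterior genes. Hindbrain structures in front of the most anterior Hox boundary, the cerebellum among them, form without Hox expression in their neural cells. Irx genes, the vertebrate Iroquois genes, also lie in clusters and pattern the neural tube, heart and limbs. In differentiated tissues, members of both families often keep a regional pattern of expression in blood vessels and connective tissue cells. In endothelial cells, Norrin and Frizzled4 act through beta-catenin and the T-cell factor (TCF/LEF) proteins.

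The arrays were checked first. Fzd4, the targeted gene, read 10.80, 10.20 and 10.88 in wild type and 3.04 to 4.03 in the null arrays, on its brightest probe set. Array medians lay between 5.52 and 5.58 and lower quartiles between 3.46 and 3.64. The 15 measured pan-endothelial genes had mean levels of 11.34 to 11.70 on the 6 arrays. Null replicate 1 stood apart in markers of other cells, with a mean of 6.33 for fibroblast and meningeal genes against 8.13 to 9.19 on the other arrays. It also read 5.07 against 7.56 to 7.92 for microglia and macrophage genes.

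Neighbouring genes in pairs, Hoxd8 with Hoxd9 and Irx3 with Irx5, read higher on every null array than on any wild-type array, and each differed at least 2-fold. None of them passed the limma threshold over all probe sets (adjusted p under 0.05). Of the 39 members, 0 passed, against 4 of 18193 genes (0.022%), and 7 had an unadjusted limma p under 0.05, 4 higher and 3 lower. With single arrays left out, 0 to 2 genes passed over the whole table, and with the replicate block 0 did. The shares were 17.9% of members and 4.6% of all genes, or 10.3% against 2.34% for higher readings and 7.69% against 2.26% for lower ones. The groups did not overlap for 4 members that read higher (10.3%, against 4.59% of all genes) and for 5 that read lower (12.8%, against 4.95%). With cyclic loess or quantile normalization 3 members (7.69%) read lower without overlap, Hoxd13, Irx2 and Irx4, and Hoxb6 and Hoxc13 overlapped. Of all genes, 4.78% with cyclic loess and 4.44% with quantile normalization read lower without overlap. A difference of 2-fold or more upward was seen in 4 members (10.3%, against 0.868% of all genes), and the same downward in 0 members (1.24% of all genes).

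**Figure D1:**
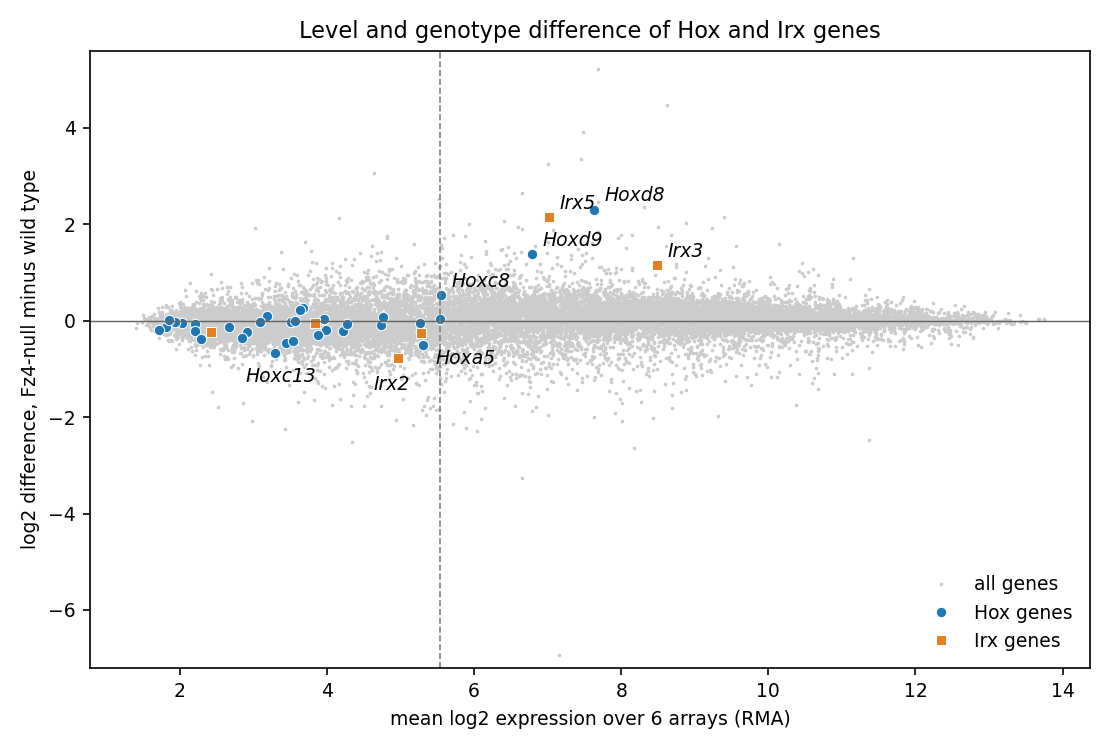
Each point is a gene, with its mean log2 expression over the 6 arrays on the x axis and its log2 difference, Fz4-null minus wild type, on the y axis; the dashed line marks the median level of all probe sets (5.54). Hoxd8, Irx5, Hoxd9 and Irx3 lie to the right of that line with differences of 2.30, 2.15, 1.38 and 1.15, and nearly all other Hox and Irx genes lie to its left, close to 0.

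Hoxd8, a central HoxD gene, showed the widest difference of the members. It read 6.21, 6.49 and 6.74 in wild type and 8.98, 8.44 and 8.93 in the null arrays, so the lowest null array lay 1.70 above the highest wild-type array. The estimate was 2.30 (SE 0.23, 95% interval 1.75 to 2.86, limma adjusted p = 0.107), a 4.93-fold difference. This brightest probe set is of a kind that can read several transcripts. A second Hoxd8 probe set, which is not of that kind, read 3.40, 4.09 and 4.49 in wild type and 6.71, 6.62 and 6.66 in the null arrays. Its difference was 2.67 (SE 0.29, limma adjusted p = 0.107). Both probe sets therefore separated the genotypes without overlap.

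Hoxd9, the coding gene next to Hoxd8 on the posterior side of the cluster, read 5.64, 5.94 and 6.71 in wild type and 7.22, 7.73 and 7.50 in the null arrays. Wild-type replicate 3 was the highest of its group and lay 0.50 below the lowest null array. The difference was 1.38 (SE 0.31, 95% interval 0.64 to 2.12, limma adjusted p = 0.742), or 2.60-fold. Without wild-type replicate 3 it was 1.69, and without wild-type replicate 1 it was 1.15.

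Irx5 read 5.80, 5.70 and 6.34 in wild type and 8.08 and 8.22 on null replicates 1 and 2. Null replicate 3, the lowest null array, lay 1.66 above the highest wild-type array, and the mean of the null arrays was 8.10 ± 0.11 (SD, n = 3). The difference was 2.15 (SE 0.22, 95% interval 1.62 to 2.68, limma adjusted p = 0.107), or 4.44-fold.

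Irx3, the nearest coding gene to Irx5 on the other side from Irx6, read 8.15, 7.84 and 7.76 in wild type and 9.02, 9.04 and 9.14 in the null arrays. It lay above the array median on all 6 arrays, as did Hoxd8, Hoxd9 and Irx5. The difference was 1.15 (SE 0.18, 95% interval 0.72 to 1.58, limma adjusted p = 0.418), or 2.22-fold. By limma p, Hoxd8, Irx5, Irx3 and Hoxd9 ranked 7, 8, 29 and 109 among the 18193 genes.

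**Figure D2:**
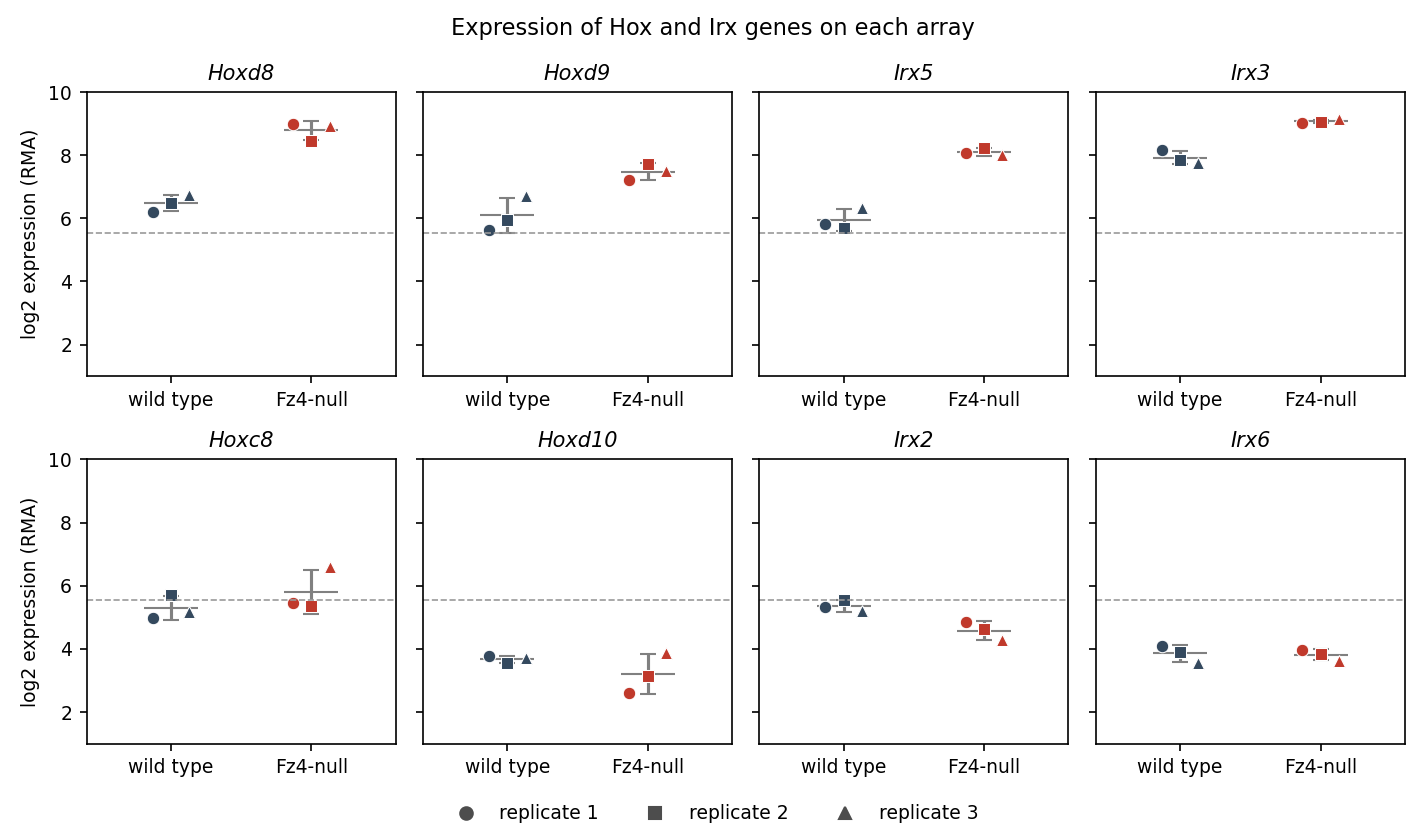
Log2 expression of 8 members on each array, with wild type in dark blue and Fz4-null in red, symbols for the replicate number, grey bars for the mean and SD (n = 3), and a dashed line at the median level of all probe sets (5.54). In the upper row (Hoxd8, Hoxd9, Irx5 and Irx3) the groups are separate, with the null arrays above; in the lower row Hoxc8, Hoxd10 and Irx6 overlap between genotypes and Irx2 is lower in the null arrays.

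Calls for Hoxd8 and Irx5 differed between alternatives. With array weights, limma gave adjusted p = 0.0349 for Hoxd8 and 0.0282 for Irx5, and with a gene's probe sets averaged it gave 0.0381 for both. These alternatives also called more genes in all, 12 and 11 in place of 4, and the averaged one tested 18193 genes in place of 45037 probe sets. Irx5 has a single probe set, so averaging left its values as they were. Over all 22 alternatives, the adjusted p of each lay between those lowest values and 1. With the replicate numbers as a block, the limma adjusted p was 0.314 for Hoxd8 and for Irx5. The direction was the same in all 22 alternatives for Hoxd8, Hoxd9, Irx3 and Irx5. Because their groups did not overlap, leaving out arrays could not change it. Alternatives that changed only the test or the threshold kept the same difference. The differences ranged from 2.07 to 2.67 for Hoxd8, 1.97 to 2.40 for Irx5, 1.15 to 1.69 for Hoxd9 and 1.03 to 1.29 for Irx3.

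**Figure D3:**
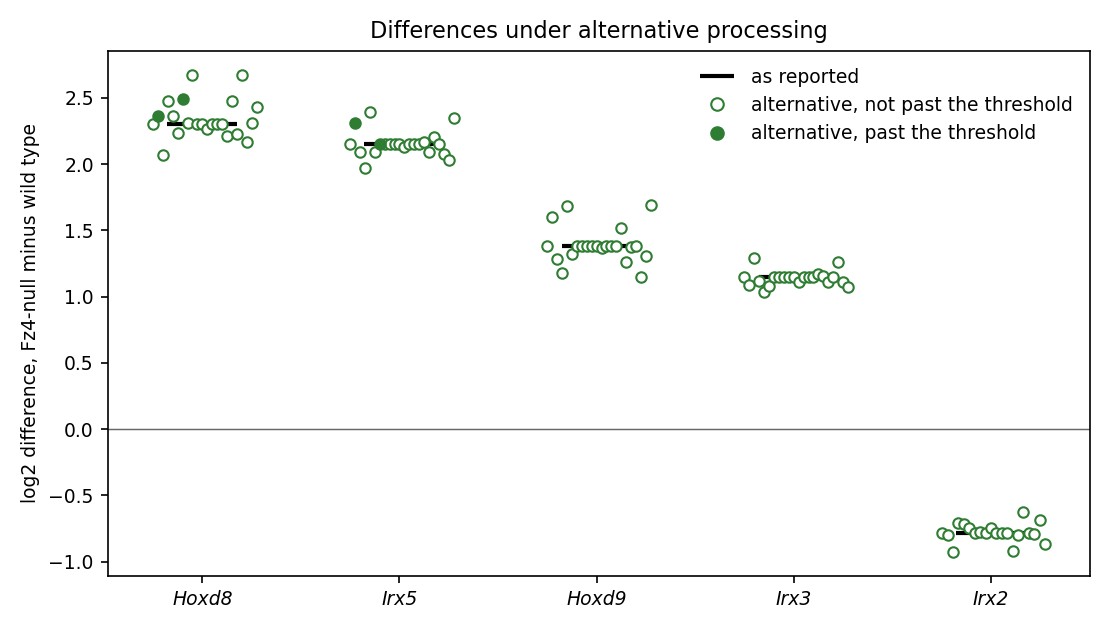
Log2 difference, Fz4-null minus wild type, of 5 members as reported (black bar) and under each alternative processing (circles, filled where limma's adjusted p passed the threshold in use). Hoxd8 and Irx5 each have 2 filled circles, and no circle lies on the other side of 0.

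The endothelial gene lists and the choroid plexus list separated by genotype in their mean levels. The fibroblast and meningeal, pericyte and smooth muscle, microglia and macrophage, astrocyte and Bergmann glia, granule neuron, Purkinje cell and leukocyte lists overlapped. Their median differences were still all below 0, from -0.91 (microglia and macrophage) to -0.15 (granule neuron). All 14 fibroblast and meningeal genes and all 13 microglia and macrophage genes had differences below 0. Null replicate 1 was the lowest array for both lists. Genes of fenestrated and peripheral endothelium, such as Plvap, had mean levels of 8.06 to 8.41 in the null arrays against 6.81 to 7.04 in wild type. Of their 14 measured members, 8 read higher without overlap and 0 read lower without overlap. The differences of 5 others, Aqp1, Car4, Gata4, Ehd3 and Tcf15, were below 0 with overlap. Pan-endothelial genes had mean levels of 11.61 to 11.70 against 11.34 to 11.50, with 3 of 15 higher without overlap. Choroid plexus epithelium genes lay the other way, at 4.82 to 5.28 in the null arrays against 5.85 to 8.22 in wild type, with 7 of 10 lower without overlap. Of all genes, 4.59% read higher without overlap and 4.95% read lower without overlap. The part of these lists in the Hox and Irx differences was not tested, and in RNA from whole preparations fewer cells of a type and less RNA per cell cannot be told apart. The differences were 2.21, 1.51, 2.16 and 1.17 for Hoxd8, Hoxd9, Irx5 and Irx3 without null replicate 1, the array low in markers of other cells. Without wild-type replicate 3, which had the most choroid plexus signal, they were 2.43, 1.69, 2.35 and 1.07. The other wild-type arrays, at 5.96 and 5.85 for choroid plexus genes, still lay above every null array. Leaving that array out therefore does not separate the choroid plexus list from genotype.

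The 250 bases before the start of Hoxd8, Hoxd9 and Irx3 are shown because these genes read higher together, with a TCF/LEF core marked. They are RefSeq promoter sequences of build GRCm38.p6, written 5′ to 3′ on the gene's strand, and capitals mark the core CTTTGAT on either strand.
Hoxd8, chr2:74704365-74704614, plus strand: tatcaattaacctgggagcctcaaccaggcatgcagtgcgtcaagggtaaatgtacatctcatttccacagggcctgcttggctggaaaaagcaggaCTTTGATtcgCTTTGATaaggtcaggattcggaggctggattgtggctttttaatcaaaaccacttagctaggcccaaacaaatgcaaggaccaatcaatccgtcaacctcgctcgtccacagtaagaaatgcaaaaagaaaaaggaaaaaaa
Hoxd9, chr2:74697513-74697762, plus strand: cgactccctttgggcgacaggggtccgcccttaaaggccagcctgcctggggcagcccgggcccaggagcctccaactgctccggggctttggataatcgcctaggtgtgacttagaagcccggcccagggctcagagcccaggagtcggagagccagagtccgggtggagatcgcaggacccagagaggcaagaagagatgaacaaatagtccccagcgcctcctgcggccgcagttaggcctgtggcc
Irx3, chr8:91801655-91801904, minus strand: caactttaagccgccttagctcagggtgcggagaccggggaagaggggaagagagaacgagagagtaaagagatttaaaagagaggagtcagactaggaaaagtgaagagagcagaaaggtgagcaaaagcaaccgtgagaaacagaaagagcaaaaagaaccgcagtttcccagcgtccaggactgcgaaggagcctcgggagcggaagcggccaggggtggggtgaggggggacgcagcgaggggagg
The Hoxd8 window held the core in 2 places, both on the plus strand, starting 153 and 143 bases before the gene's start, and the Hoxd9 and Irx3 windows held 0. Of 32851 promoter windows of the same length, 3.21% held the core at least once and 0.0822% held it at least 2 times. Promoter windows were matched for 22 of the 39 members, 24 windows in all, and Hoxd8 alone among them held the core. The Irx5 window was not analysed here. Also searched were the Hox-Pbx cores TGATTTAT and TGATTGAT and the Irx core ACANNTGT, on both strands. Of all windows, 0.837%, 0.670% and 6.31% held them. TGATTGAT was found before Hoxa2 and Hoxd11 and ACANNTGT before Hoxa3, and no match overlapped another. A match describes the letters of a window and not a bound site, and the cores were chosen with these sequences in view.

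The higher readings lay at neighbouring measured genes. On chromosome 2, Hoxd8 and Hoxd9 were separated by a single RefSeq gene, the long non-coding RNA Gm38462. It read 1.99, 2.10 and 2.11 in wild type and 4.64, 4.41 and 2.89 in the null arrays, a difference of 1.92. The groups did not overlap, but only 2 of the 3 null arrays lay above the lower quartiles of the arrays. On the anterior side of Hoxd8, the non-coding Hoxd3os1 (0.24) and the coding genes Hoxd3 (-0.04) and Hoxd1 (-0.02) overlapped between genotypes. Hoxd3 read 2.88, 3.10 and 3.33 in wild type and 3.22, 3.22 and 2.76 in the null arrays. Hoxd1 read between 1.58 and 2.51 on the 6 arrays. The 4 RefSeq genes between Hoxd3 and Hoxd1 were not analysed here. Hoxd10, the gene beyond Hoxd9, read 3.76, 3.55 and 3.71 in wild type and 2.62, 3.13 and 3.89 in the null arrays, and the groups overlapped. Its difference was -0.46 (95% interval -1.24 to 0.31).

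Further from the pair, Hoxd11 (0.02) and Hoxd12 (-0.30) also overlapped between genotypes. Hoxd12 read 4.16, 4.30 and 3.64 in wild type and 3.89, 3.68 and 3.62 in the null arrays, and Hoxd11 between 1.74 and 1.93 on the 6 arrays. Hoxd13 read 3.74, 3.83 and 3.66 in wild type and 3.33, 3.37 and 3.30 in the null arrays, a difference of -0.41 with an unadjusted limma p of 0.0378 (adjusted p near 1). Its dimmer probe set differed by 0.75, in the other direction, so its direction was not settled. Outside the cluster, Evx2 (0.05), Lnpk (-0.28) and Mtx2 (0.19) overlapped between genotypes.

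On chromosome 8, Crnde, a long non-coding RNA gene that lies next to Irx5 on the side of Irx3, followed the same pattern. Crnde read 5.07, 4.14 and 5.12 in wild type and 6.61, 6.16 and 6.25 in the null arrays, and the groups were 1.04 apart. Its difference was 1.56, and it was chosen by its place beside the member genes after their values were known. Of the 8 RefSeq genes between Irx3 and Irx5, Crnde was the 1 measured, and the other 7 were not analysed here. Irx6, on the other side of Irx5, read 4.11, 3.92 and 3.57 in wild type and 3.97, 3.85 and 3.62 in the null arrays. Its difference was -0.05 (95% interval -0.55 to 0.45), and its groups overlapped. Fto, the nearest measured coding gene beyond Irx3, differed by 0.35 with overlapping groups, and so did Mmp2 (0.63) beyond Irx6.

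**Figure D4:**
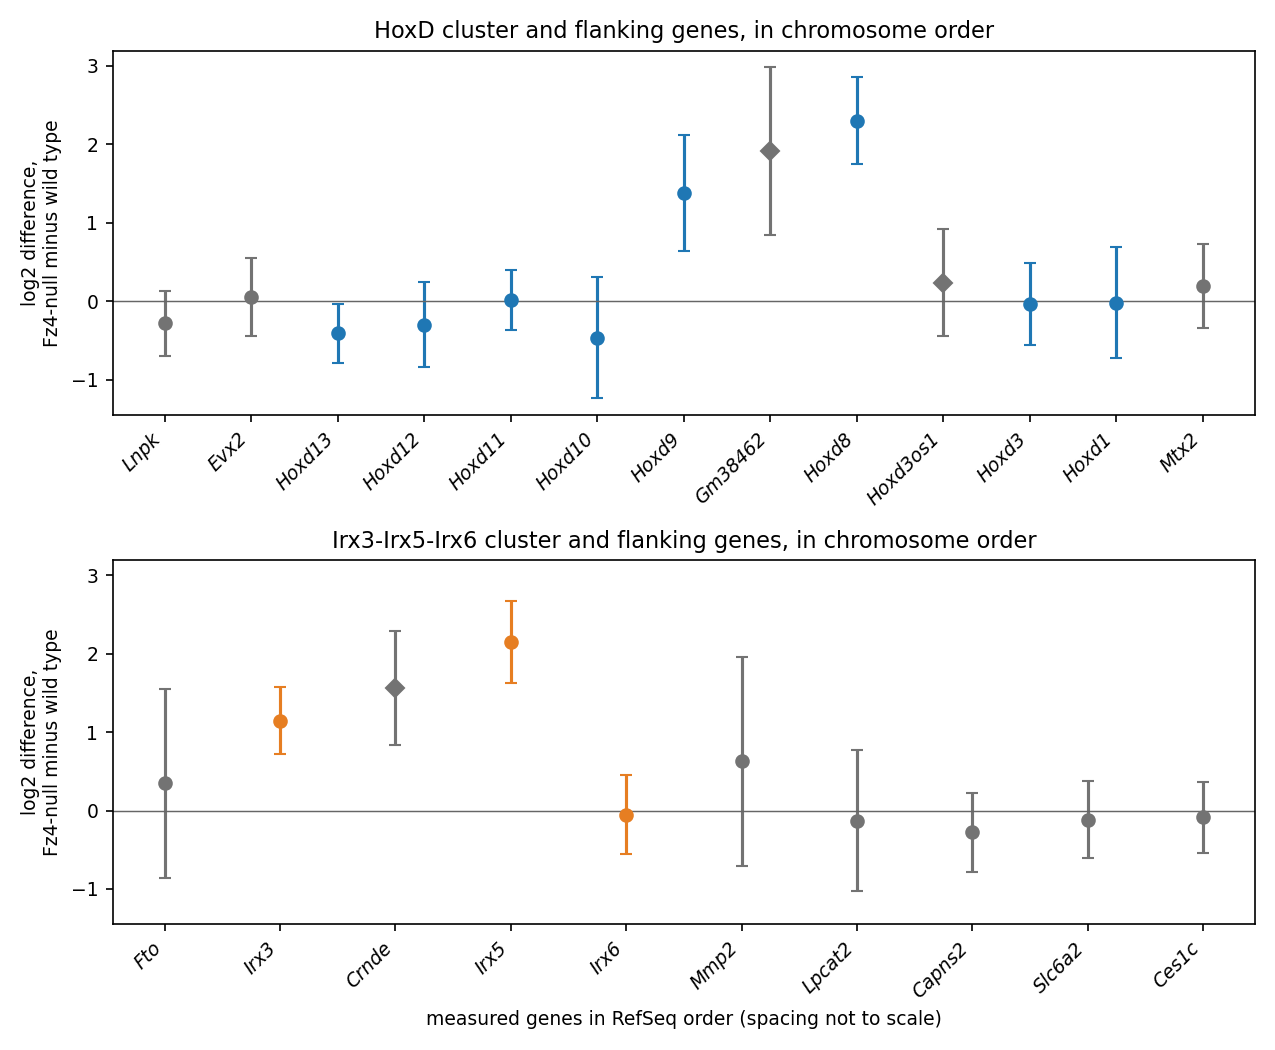
Log2 difference, Fz4-null minus wild type, with its 95% limma interval (n = 3 arrays per genotype) for the measured genes of the HoxD and Irx3-Irx5-Irx6 clusters and the measured genes among the 10 RefSeq genes on either side, in chromosome order and not to scale. Circles are coding genes and diamonds non-coding ones, with Hox members in blue, Irx members in orange and other genes in grey. The intervals of Hoxd9, Gm38462 and Hoxd8, and of Irx3, Crnde and Irx5, lie above 0; that of Hoxd13 lies below 0, and the others include it.

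The Irx genes of the other cluster, on chromosome 13, read lower in the null arrays or overlapped. Irx2 read 5.34, 5.55 and 5.19 in wild type and 4.85, 4.62 and 4.27 in the null arrays. The groups were 0.34 apart, and the difference was -0.78 (SE 0.22, 95% interval -1.30 to -0.27, limma adjusted p = 0.905). Irx4 read 2.52, 2.53 and 2.56 in wild type and 2.37, 2.28 and 2.28 in the null arrays, below the lower quartile of every array. Irx1 read 5.51, 5.61 and 5.10 in wild type and 5.18, 5.36 and 4.92 in the null arrays, with overlap. Over the 6 Irx genes the median difference was -0.14, against 0.008 for all genes, and the range was -0.78 to 2.15.

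Paralogs of Hoxd8 and Hoxd9, the genes with the same number in other clusters, did not separate by genotype. Hoxc8 read 4.98, 5.71 and 5.16 in wild type and 5.46, 5.37 and 6.61 in the null arrays, a difference of 0.52 (95% interval -0.38 to 1.43). Null replicate 3 alone was high. Hoxa9 read 4.94, 4.83 and 4.59 in wild type and 4.51, 5.11 and 4.46 in the null arrays. Hoxb9 read 3.47, 3.56 and 3.56 in wild type and 3.15, 3.84 and 3.51 in the null arrays. Hoxc9 read 4.94, 4.94 and 4.26 in wild type and 5.06, 4.39 and 4.93 in the null arrays. In each of the 3 genes the null arrays lay on both sides of the wild-type mean. The differences were -0.10 for Hoxa9, -0.03 for Hoxb9 and 0.08 for Hoxc9, all with overlapping groups. Their 95% intervals were -0.66 to 0.46, -0.56 to 0.49 and -0.59 to 0.75, so a difference in readings as large as the Hoxd9 estimate lay outside each of them. Their means over the 6 arrays, 4.74, 3.51 and 4.76, lay below the median level of all probe sets. Differences in transcript can be understated there, so the intervals do not exclude a change of that size in the transcript.

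Most of the remaining Hox genes read low on all arrays. Of the 39 members, 5 had a mean over the 6 arrays above the median level of all probe sets (5.54), namely Hoxd8, Hoxd9, Irx3, Irx5 and, at 5.55, Hoxc8. Hoxc6 lay just below, at 5.53. RMA compresses differences near background, so the differences of the 34 dimmer members can be understated. The 31 Hox genes other than Hoxd8 and Hoxd9 had a median difference of -0.08 and a range of -0.66 to 0.52. By cluster, the median was -0.10 for 9 HoxA genes, -0.13 for 9 HoxB genes, 0.04 for 7 HoxC genes and -0.03 for 8 HoxD genes. By number, it was -0.10 for the 10 genes numbered 1 to 4, -0.04 for the 9 numbered 5 to 8 and -0.04 for the 14 numbered 9 to 13.

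Among the other Hox genes, the brighter ones overlapped between genotypes. Hoxa5, a central HoxA gene, read 5.53, 5.43 and 5.70 in wild type and 5.24, 3.76 and 6.14 in the null arrays, so the null group spanned both sides of the wild-type group. Hoxa7 read between 5.02 and 5.56 on the 6 arrays, and Hoxc6 between 5.35 and 5.69. Hoxb4 was highest on wild-type replicate 3, at 5.23, against 3.74 to 4.75 on the other arrays. Hoxc13, a posterior gene known for its part in hair formation, read 3.56, 3.41 and 3.90 in wild type and 2.78, 2.81 and 3.28 in the null arrays. Its groups were 0.12 apart, and its difference of -0.66 (SE 0.23) had an unadjusted limma p of 0.0235 and an adjusted p near 1. It lay above the lower quartile on 1 of the 6 arrays. Hoxb6 read lower without overlap by a gap of 0.04, and all 6 arrays were below their lower quartiles.

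The second and further probe sets served as a check. There were 15 of them, on 11 members, and 9 had the sign of the gene's brightest probe set. Only for Hoxd8 did both differ by 2-fold or more. The dimmest one for Hoxc5 differed by 0.30 without overlap, while the brightest differed by 0.04 with overlap. A dimmer one for Hoxc6 differed by -0.22 without overlap, against 0.04 with overlap for the brightest. The dimmer one for Hoxa9 differed by 0.35, against -0.10 for the brightest. Its lowest null array was level with its highest wild-type array.

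Genes that work with or regulate Hox genes did not pass as single genes. Of 8 measured Pbx, Meis and Pknox genes, which encode DNA-binding partners of Hox proteins, 0 passed in limma and 1 had an unadjusted p under 0.05. That gene, Pknox2, differed by -0.98 (SE 0.37), and 4.6% of all genes had such a p. The list's median was -0.10. Of 22 measured Cdx, Polycomb and Trithorax genes, which set Hox expression domains and keep them on or off, 0 passed and 0 had an unadjusted p under 0.05, with a median of 0.07. Jarid2 (-0.20) and Bmi1 (0.19) were the only ones of these 22 whose groups did not overlap. That is near the shares over all genes, 4.95% lower and 4.59% higher.

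Retinoic acid genes, which control Hox genes in the embryo, gave 0 of 16 past the limma threshold and 2 with an unadjusted p under 0.05. Stra6, a retinol carrier receptor, differed by -1.13, and the receptor gene Rxrb by 0.52. The list's median was 0.06. Among 56 other regional homeobox genes, 0 passed and 5 had an unadjusted limma p under 0.05, 1 higher and 4 lower, with a median of -0.09. Over all genes, 2.34% had such a p with a higher reading and 2.26% with a lower one. Meox2, a homeobox gene of peripheral endothelium, differed by 1.19 (SE 0.22), from 3.47 ± 0.19 (SD, n = 3) in wild type to 4.66 ± 0.30 in the null arrays. Msx3 differed by -1.31 and Otx2, which choroid plexus epithelium expresses, by -1.50. For each of the 3 genes the groups did not overlap. Of these 56 genes, 10 lay above the median level of all probe sets.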

How the data were processed

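The authors deposited log2 expression values from RMA, per the submitters' processing notes. RMA corrects background and brings arrays to a common distribution. No source used here gives its version. Of 45101 probe sets, 64 controls were left out. Names came from the platform annotation (34945 probe sets with 1 symbol, 932 with several, 9160 with none), and gene order from the RefSeq table of assembly GRCm38.p6, where all 39 members matched by identifier.

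The 2 genotypes were tested two-sided with lmFit and eBayes of limma 3.58.1, run in R 4.3.3, with Benjamini-Hochberg adjustment over 45037 probe sets, and the script was tested on simulated data. With 3 arrays a group the smallest exact permutation p is 0.1, so that test was not run. Arrays have no library depth. At most 0.351% of probe sets had identical values in any 2 arrays. Replicate numbers are in the labels, and deviations from group means correlated at 0.244, 0.303 and 0.574 for equal numbers, above the minimum of 0.1. Unlike numbers ranged from -0.463 to 0.262. The labels do not say what equal numbers share, and the main fit left the numbers out. The fit with the numbers as a block is an alternative. In it the limma adjusted p was 0.314 for Hoxd8 and for Irx5, against 0.107 without the block.

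Any member could be named. Arrays are given one by one for members with an unadjusted p under 0.05 or above the median level, and for some of their paralogs and neighbours. The other members are given by difference or within a group's range. Other lists give up to 3 genes, and exceptions were chosen after their values were seen. Members and lists were chosen with earlier results of these data known, among them those of Hoxd8 and Irx5, so their shares are not independent evidence. The alternatives were other normalizations, filters, variance models, weights, choices of probe set, the block, another threshold, and arrays left out singly or in pairs.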

Additional observations from a re-analysis of the deposited data

How the results depend on the processing

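The count of members past the limma threshold was 0 in 20 of 22 alternatives and 2 with array weights and with a gene's probe sets averaged, Hoxd8 and Irx5 in both, where 12 and 11 genes passed in all against 4; the cause was not tested. With the replicate block 0 members passed, as without it, and 7 had an unadjusted p under 0.05 in each; the block changed no call of a member. Hoxd13 read 0.17 with the mean of its probe sets and 0.75 with the one of largest spread, the opposite sign. The Hox median was -0.010 with cyclic loess, -0.011 without both arrays numbered 2, -0.019 with quantile normalization, and between -0.12 (without wild-type replicate 3) and -0.037 for single arrays left out. Filters on dim probe sets gave Hox medians of 1.38 (above the median level) and 1.84 (above log2 of 100) and an Irx median of 1.65 in both. Under each of these filters 0 Hox and 0 Irx genes read lower without overlap. They kept 5 and 4 members. Of these, Hoxc8 passed the first, and Hoxd8, Hoxd9 and Irx5 the second, only through their null values, so these medians and counts follow from the filter and support nothing. The number of Hox genes lower without overlap was 1 (3.03%) with cyclic loess or quantile normalization, where 4.78% and 4.44% of all genes were, and 4 to 7 (12.1% to 21.2%) without single arrays, where 7.44% to 12.7% of all genes were. It was 8, 6 and 11 (24.2%, 18.2% and 33.3%) without both arrays numbered 1, 2 and 3, against 13.9%, 13.3% and 17.2% of all genes. The number higher was 4 and 5 (12.1% and 15.2%) without both arrays numbered 2 and 3, against 11.9% and 23.7% of all genes. Fewer arrays overlap less often by construction. The number of arrays and the low signal of most members limit all of these values.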
